A study of Mus musculus with 48 samples.

Results

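Cdh5, Pecam1, Icam1, Icam2 and Vcam1 encode proteins by which endothelial cells hold to one another and by which circulating leukocytes hold to endothelium. The members were chosen by gene symbol from a NanoString nCounter panel of mouse immune genes, a hybridization assay that counts one fluorescent barcode per captured RNA molecule. These 5 genes were 5 of the 547 endogenous genes on the panel, and all 5 were among the 491 genes that entered the tests, whose counts averaged 10 or more.

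The 48 samples are total RNA. Their source is the epididymal white fat of C3H/HeOuJ mice, an inbred strain, kept for 6 months on 1 of 6 freely available diets. A chow group (n = 8) was set against 4 custom diets and a Western diet (n = 7), all 5 of which gave 42% of calories as carbohydrate and 42% as fat. The custom diets crossed 2 carbohydrates with 2 fatty acids, with 9 samples in each oleate diet (sucrose/oleate and starch/oleate), 8 in sucrose/palmitate and 7 in starch/palmitate. No transgene or drug was used in any group. The sources used here do not give the age of the mice. They do not state the sex either, but epididymal fat comes from males. The labels describe one library per numbered sample and do not state that each came from a separate animal, so the p-values measure the spread between these samples.

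VE-cadherin, the product of Cdh5, forms the adherens junctions that seal endothelium, and PECAM-1, the product of Pecam1, lies at the borders between endothelial cells and takes part in leukocyte passage across them. ICAM-2 is present on resting endothelium, whereas ICAM-1 and VCAM-1 are known to be induced there by inflammatory cytokines through NF-kappa B. ICAM-1 and ICAM-2 bind integrins that contain the beta 2 chain (Itgb2) on leukocytes, and VCAM-1 binds the integrin made of Itga4 and Itgb1. Pecam1 and Icam2 are also expressed by platelets and some leukocytes, and Icam1 and Vcam1 by macrophages and stromal cells, so none of these 4 genes marks endothelium alone.

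The promoter of Icam1, shown because NF-kappa B is a known inducer of this gene, is the member promoter held in the RefSeq table used here (1 of 5 members matched). It is 300 bases of chromosome 9 on the forward strand of GRCm38.p6, from 250 bases before to 50 bases after the annotated start, at chr9:21015690-21015989. Capitals mark, in order, a kappa B match and a match to the gamma-interferon-activated (GAS) letters.
Icam1: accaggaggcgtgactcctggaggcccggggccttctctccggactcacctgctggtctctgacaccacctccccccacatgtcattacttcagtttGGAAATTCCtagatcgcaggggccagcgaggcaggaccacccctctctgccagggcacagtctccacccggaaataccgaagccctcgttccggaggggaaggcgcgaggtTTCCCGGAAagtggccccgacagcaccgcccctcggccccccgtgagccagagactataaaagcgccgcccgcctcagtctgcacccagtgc
The kappa B letters searched were GGAAATTCC, found on the forward strand 153 bases before the start. The GAS letters searched were TTCNNNGAA, found 42 bases before the start as TTCCCGGAA. Over both strands of 32851 promoter windows of the same length, the first run of letters was present in 104 (0.317%) and the second in 2726 (8.3%). The first run is one exact form, and other forms of the kappa B site were not searched. Its share is therefore that of these letters and not of kappa B sites at large. The 2 matches did not overlap. These matches describe letters in this window and are not evidence of binding.

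Each sample's counts were divided by a factor from its 14 reference genes (their geometric mean) and are given below as scaled counts, whose sizes compare samples of one gene and not different genes. Differences are log2 values with their standard error (SE) from edgeR's quasi-likelihood fit over all 48 samples, and a gene is said to rise or fall where its p-value, Benjamini-Hochberg adjusted over the 491 genes, was under 0.05. The samples' endogenous totals lay between 360649 and 813162 counts (median 581229), and the lowest member count lay far above the negative control probes, whose mean was 7.51 and highest value 21. More genes of the panel rose than fell on the fat-rich diets, and the median gene lay 0.20, 0.24, 0.19, 0.34 and 0.25 (log2) above chow in, respectively, the sucrose/palmitate, starch/palmitate, sucrose/oleate, starch/oleate and Western diet groups. Under TMM scaling, which assumes that most genes hold still, those medians were 0.06, 0.08, 0.01, 0.03 and 0.06. Reference genes themselves passed the test against chow in 1, 4, 5, 9 and 7 of 14 cases, in the same order of diets. The 5 comparisons with chow share the 8 chow samples and are set side by side, not counted as independent.

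Some libraries stood apart in genes of other tissues. Summed levels of 5 epithelial genes reached 175039 in Western diet sample 2, against 1203 to 5732 in the other 6 Western diet samples. Summed levels of 12 lymph node genes reached 6788 in sucrose/oleate sample 2, against 1268 to 1648 in the other 8 of that group. The ratio of the 2 brightest spike-in controls was 3.17 to 3.39 in chow and lay below that whole range in starch/palmitate (2.92 to 3.16) and sucrose/oleate (2.92 to 3.07), so for these 2 diets this ratio and the diet cannot be told apart.

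All 5 genes differed among the 6 diets, where 64.8% of the genes tested did. Adjusted p-values of the joint test were 7.2e-08 for Cdh5, 1.9e-05 for Icam1, 5.5e-05 for Icam2, 0.0012 for Pecam1 and 0.0053 for Vcam1. The members did not move together. Cdh5, Pecam1 and Icam2 had their highest mean in chow and their lowest with starch/oleate, whereas Icam1 and Vcam1 had their lowest mean in chow and their highest in an oleate diet.

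**Figure D1:**
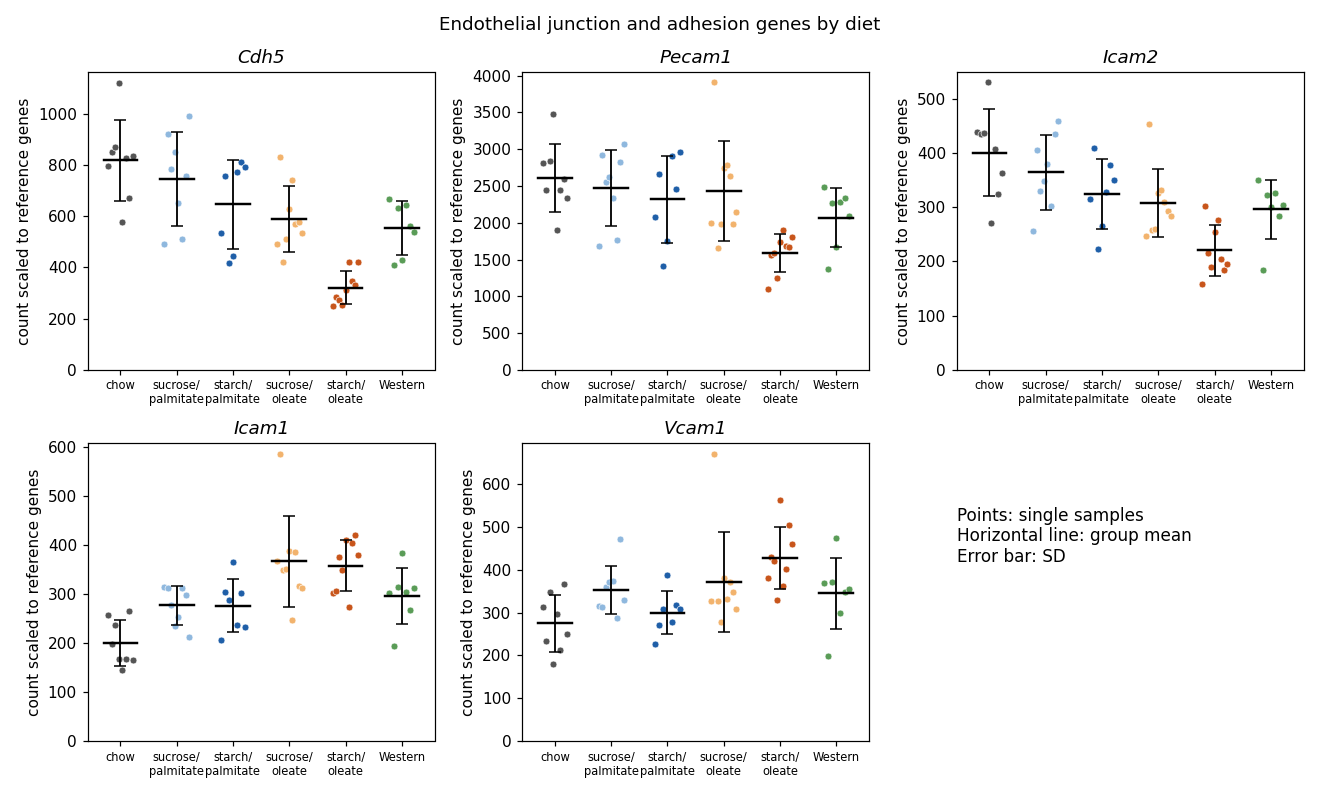
Scaled counts (y axis, from 0) of the 5 genes in each of the 48 samples, by diet (x axis), one panel per gene, with points for samples, lines for diet means and error bars for the SD. Cdh5 ran from a mean of 818 in chow to 321 with starch/oleate, and Icam1 from 201 in chow to 367 with sucrose/oleate.

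Cdh5, whose product is the adhesive core of the endothelial adherens junction, showed the widest range of the 5. In chow its scaled count was lowest at 578, had a median of 832 and was highest at 1119. In starch/oleate the lowest, median and highest values were 247, 312 and 420. Every starch/oleate sample lay below every chow sample, and the starch/oleate range overlapped the Western diet range (408 to 668, median 561) only between 408 and 420. With palmitate the range was 492.8 to 991 (median 771) beside sucrose and 418 to 809 (median 755) beside starch, and with sucrose/oleate it was 420 to 832 (median 569). These 3 overlapped chow and one another.

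Against chow, Cdh5 fell by 1.35 ± 0.16 (SE) on the log2 scale with starch/oleate (adjusted p = 2.8e-09), by 0.56 ± 0.17 with the Western diet (adjusted p = 0.0059) and by 0.47 ± 0.15 with sucrose/oleate (adjusted p = 0.013). The palmitate diets gave -0.13 ± 0.16 with sucrose (adjusted p = 0.58) and -0.34 ± 0.17 with starch (adjusted p = 0.11). Chow had the highest mean (818 ± 158, SD, n = 8), followed by the palmitate diets, with sucrose (745 ± 182, n = 8) above starch (647 ± 174, n = 7). Next came sucrose/oleate (589 ± 128, n = 9) and the Western diet (554 ± 104, n = 7), and starch/oleate was lowest (321 ± 65.3, n = 9). Of these 5 steps between neighbours, the last passed the test (0.79 ± 0.16 log2 higher with the Western diet, adjusted p = 0.00062, where 6.52% of the genes tested were higher) and the other 4 did not. In bulk tissue, fewer endothelial cells and less RNA per cell cannot be told apart.

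Pecam1, the border adhesion molecule, was lower with starch/oleate than with any other diet. Its lowest, median and highest scaled counts were 1906, 2520 and 3478 in chow and 1104, 1672 and 1900 with starch/oleate, so the 2 groups did not overlap. The other 4 diets spanned 1366 to 3912 and overlapped chow. Pecam1 fell by 0.71 ± 0.15 with starch/oleate (adjusted p = 1.0e-04). The other diets gave differences from -0.33 ± 0.16 (Western diet, adjusted p = 0.098) to -0.08 ± 0.16 (sucrose/palmitate, adjusted p = 0.75). No neighbouring pair of diets in the order of Pecam1 means passed the test.

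Icam2, the ICAM of resting endothelium, fell with 3 of the 5 diets. Its scaled counts in chow ran from 271 to 531 with a median of 421, and with starch/oleate from 159 to 302 with a median of 204. Samples below the lowest chow sample numbered 7 of 9 with starch/oleate, 3 of 9 with sucrose/oleate and 1 of 7 with the Western diet. It fell by 0.86 ± 0.14 with starch/oleate (adjusted p = 2.2e-06), by 0.44 ± 0.15 with the Western diet (adjusted p = 0.018) and by 0.39 ± 0.14 with sucrose/oleate (adjusted p = 0.027). With palmitate it was -0.14 ± 0.14 beside sucrose and -0.31 ± 0.15 beside starch, neither of which passed. The single step between neighbouring means that passed was from the Western diet (296 ± 53.9, n = 7) to starch/oleate (219.9 ± 47.2, n = 9), at 0.43 ± 0.15 log2 (adjusted p = 0.040).

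Icam1, the inducible ligand of leukocyte beta 2 integrins whose promoter is printed above, was the one member that rose on every fat-rich diet. Chow samples lay between 146 and 266, with a median of 182. Medians were 288 in both palmitate diets, 303 with the Western diet, 351 with sucrose/oleate and 376 with starch/oleate. All 9 starch/oleate samples lay above the highest chow sample, as did 8 of 9 with sucrose/oleate, 6 of 7 with the Western diet, 5 of 8 with sucrose/palmitate and 4 of 7 with starch/palmitate. The rise was 0.87 ± 0.14 with sucrose/oleate (adjusted p = 6.7e-06), 0.84 ± 0.14 with starch/oleate (adjusted p = 3.0e-06) and 0.57 ± 0.15 with the Western diet (adjusted p = 0.0022). It was smaller with the palmitate diets, at 0.47 ± 0.14 beside sucrose (adjusted p = 0.028) and 0.46 ± 0.15 beside starch (adjusted p = 0.017). In the order of Icam1 means, only the step from chow to starch/palmitate, its nearest diet, passed the test.

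Vcam1, the inducible ligand of the Itga4 integrin, rose with both oleate diets. Its chow range was 180 to 366 with a median of 273. With starch/oleate the range was 331 to 563 (median 422), and 7 of 9 samples exceeded the highest chow sample. With sucrose/oleate the range was 278 to 672 (median 332), and 3 of 9 samples exceeded it. Vcam1 rose by 0.64 ± 0.15 with starch/oleate (adjusted p = 0.00037) and by 0.43 ± 0.15 with sucrose/oleate (adjusted p = 0.021). The sucrose/oleate rise missed the threshold under TMM scaling (0.25 ± 0.11, adjusted p = 0.074), DESeq2 (0.23 ± 0.12, adjusted p = 0.097) and with only the compared groups (adjusted p = 0.056). The values were 0.36 ± 0.16 with sucrose/palmitate (adjusted p = 0.10), 0.33 ± 0.16 with the Western diet (adjusted p = 0.0995) and 0.12 ± 0.16 with starch/palmitate (adjusted p = 0.58). No step between neighbouring Vcam1 means passed.

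**Figure D2:**
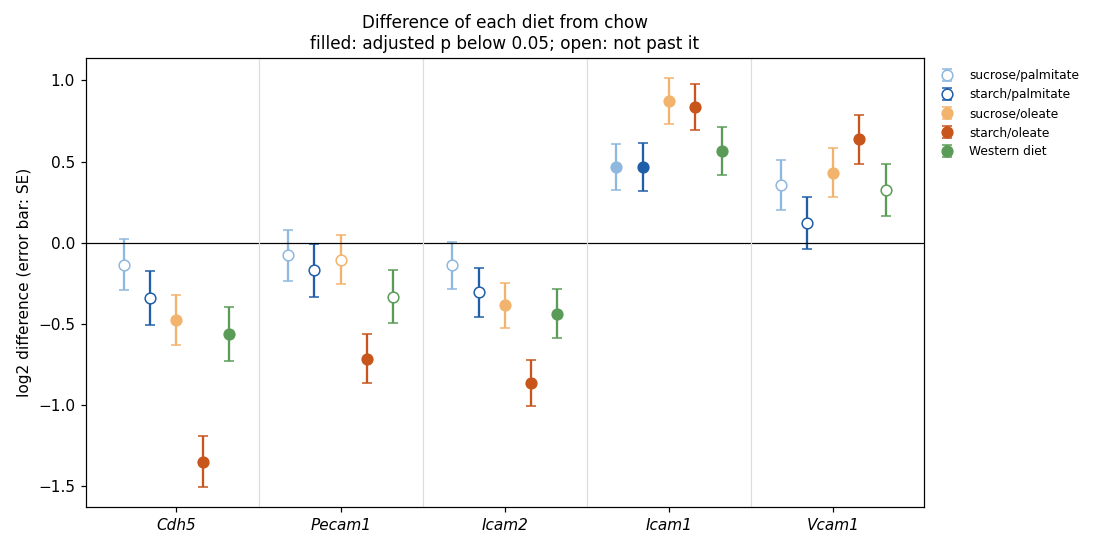
Log2 difference from chow (y axis) of each gene (x axis) in each of the 5 fat-rich diets (colours), as points with the SE as error bar, filled where the adjusted p was below 0.05. With starch/oleate the values run from -1.35 for Cdh5 to 0.84 for Icam1.

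Counted by diet, 1 of the 5 genes rose with sucrose/palmitate, where 14.9% of the genes tested rose, and 1 with starch/palmitate, where 20.6% did. With sucrose/oleate 2 rose and 2 fell, against 28.9% and 7.74% of the genes tested. With starch/oleate 2 rose and 3 fell, against 48.3% and 12%. With the Western diet 1 rose and 2 fell, against 32.8% and 7.94%. Groups that do not overlap with chow made up 24.2% of the genes tested with starch/oleate, where 3 of the 5 members did not overlap. The median difference of the 5 members was -0.71 with starch/oleate, where the median of all genes was 0.34. Relative to that median, the starch/oleate differences were -1.69 for Cdh5, -1.21 for Icam2, -1.06 for Pecam1, 0.49 for Icam1 and 0.29 for Vcam1. Vcam1 with starch/palmitate and Pecam1 with sucrose/palmitate, neither of which passed, changed sign between scalings (-0.02 under TMM for the first and 0.01 under total counts for the second).

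Several of the smaller differences passed or missed the threshold according to single samples or settings. Icam1 with sucrose/palmitate missed the threshold when chow sample 4, 6 or 8 or sucrose/palmitate sample 1 was left out, with adjusted p up to 0.068, and Icam1 with starch/palmitate did so without starch/palmitate sample 4 (adjusted p = 0.062). With sucrose/oleate, Icam2 missed it without chow sample 4 or sucrose/oleate sample 1 or 3 (adjusted p up to 0.088), and Vcam1 without chow sample 4 or 6 or sucrose/oleate sample 2. Without that last sample, the highest of its group for lymph node genes, Vcam1 was 0.28 ± 0.14 above chow (adjusted p = 0.11) and Icam1 0.76 ± 0.13 (adjusted p = 2.0e-05). With the Western diet, Icam2 missed it without chow sample 4 or Western diet sample 2, at adjusted p up to 0.053, and Vcam1 passed without chow sample 7 or Western diet sample 2, at adjusted p down to 0.023. Under TMM scaling and DESeq2 Pecam1 also fell with the Western diet (-0.53 ± 0.18 in both, adjusted p = 0.018 and 0.011). With the spike-in ratio as a covariate, standard errors widened and the sucrose/oleate differences were -0.27 ± 0.23 for Cdh5 (adjusted p = 0.47), -0.27 ± 0.21 for Icam2 (adjusted p = 0.44) and 0.35 ± 0.23 for Vcam1 (adjusted p = 0.35).

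The crossed design separates fatty acid from carbohydrate. With palmitate rather than oleate, averaged over both carbohydrates, Cdh5, Pecam1 and Icam2 were higher and Icam1 and Vcam1 were lower, so all 5 genes passed, where 10.8% of the genes tested were higher and 23.6% lower. The difference was 0.67 ± 0.11 for Cdh5 (adjusted p = 2.6e-05), which ranked 5 among the 491 genes by p-value, 0.40 ± 0.10 for Icam2 (adjusted p = 0.0025) and 0.29 ± 0.11 for Pecam1 (adjusted p = 0.038). It was -0.39 ± 0.10 for Icam1 (adjusted p = 0.0030) and -0.30 ± 0.11 for Vcam1 (adjusted p = 0.031). Vcam1 missed the threshold under TMM scaling (-0.19, adjusted p = 0.058) and total count scaling (-0.18, adjusted p = 0.16), and without starch/palmitate sample 1, sucrose/oleate sample 2 or starch/oleate sample 5 (adjusted p up to 0.073). Pecam1 missed it in 16 of the 33 fits that each left out 1 sample.

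With sucrose rather than starch, averaged over both fatty acids, the same 3 genes that were higher with palmitate were higher again, and the inducible pair was not called. The values were 0.54 ± 0.11 for Cdh5 (adjusted p = 0.00086), 0.35 ± 0.11 for Pecam1 (adjusted p = 0.043) and 0.32 ± 0.10 for Icam2 (adjusted p = 0.043). Icam1 differed by 0.02 ± 0.10 (adjusted p = 0.94) and Vcam1 by 0.01 ± 0.11 (adjusted p = 0.95). These are 3 of 5 members higher, against 4.07% of the genes tested. Pecam1 missed the threshold in 12 and Icam2 in 14 of the 33 fits that left out 1 sample, whereas Cdh5 passed in all of them. The 5 epithelium-rich libraries were starch/palmitate samples 1 and 3, starch/oleate samples 2 and 6, and Western diet sample 2. No sucrose diet held such a library. Without these libraries Pecam1 differed by 0.30 ± 0.11 between sucrose and starch (adjusted p = 0.083).

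In single arms, the Cdh5 difference between sucrose and starch was 0.87 ± 0.15 with oleate (adjusted p = 8.7e-05) and 0.20 with palmitate, which did not pass. Pecam1 was 0.61 ± 0.15 higher with sucrose in the oleate arm (adjusted p = 0.0036) and Icam2 0.48 ± 0.14 (adjusted p = 0.014). In that arm 3 of 5 members were higher, against 5.09% of the genes tested, and in the palmitate arm 0 of 5, where 2.04% passed in either direction. The spike-in ratio was 2.92 to 3.07 with sucrose/oleate and 3.11 to 3.28 with starch/oleate. In the oleate arm this ratio and the carbohydrate therefore cannot be told apart. Between the fatty acids, the starch arm gave 1.01 ± 0.16 for Cdh5 (adjusted p = 1.4e-05), 0.56 ± 0.15 for Icam2, 0.55 ± 0.16 for Pecam1, -0.37 ± 0.14 for Icam1 and -0.51 ± 0.16 for Vcam1, all of which passed. Icam1 there missed the threshold under TMM scaling (-0.21, adjusted p = 0.11), total counts (-0.26, adjusted p = 0.13), DESeq2 (-0.20, adjusted p = 0.11) and in 10 of the 16 fits that left out 1 sample (adjusted p up to 0.10). Here 3 were higher and 2 lower, against 8.35% and 24.2% of the genes tested. The spike-in ratios of the starch arm, 2.92 to 3.16 with palmitate and 3.11 to 3.28 with oleate, overlapped only between 3.11 and 3.16. In the sucrose arm 0 of 5 passed, where 3.67% of the genes tested did, and the difference nearest the threshold was -0.41 ± 0.14 for Icam1 (adjusted p = 0.082).

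The test of whether the carbohydrate difference itself depended on the fatty acid passed for none of the 5 genes with reference gene scaling over all 48 samples, where 5.5% of the genes tested passed. Cdh5 came nearest, at -0.67 ± 0.22 (adjusted p = 0.069), and passed in 7 of the 33 fits that left out 1 sample. It also passed under TMM scaling (-0.83 ± 0.26, adjusted p = 0.043), without the 5 epithelium-rich libraries (-0.86 ± 0.23, adjusted p = 0.024), with Ptprc as a covariate (-0.63 ± 0.20, adjusted p = 0.036) and by DESeq2 (-0.83 ± 0.26, adjusted p = 0.022), which called Pecam1 too (-0.69 ± 0.24, adjusted p = 0.049). In other planned fits its adjusted p was up to 0.28. Starch/palmitate and sucrose/oleate, the 2 diets with low spike-in ratios, stand on the same side of this test. With that ratio as a covariate 0 of the 491 genes passed, against 27 without it. Whether the arms differ for Cdh5 thus depended on the setting. The Western diet and sucrose/palmitate differed in none of the 5 genes, where 6.11% of the genes tested passed.

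**Figure D3:**
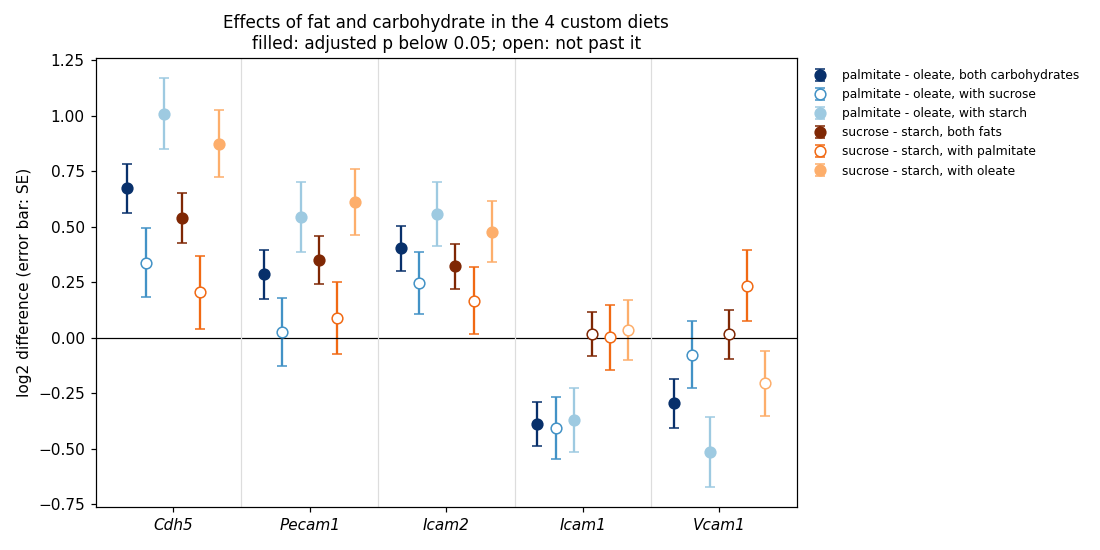
Log2 differences (y axis) between palmitate and oleate and between sucrose and starch for each gene (x axis), averaged over the other factor and within each arm, with the SE as error bar and filled points where the adjusted p was below 0.05. Cdh5 lies at 0.67 for the fatty acids and 0.54 for the carbohydrates, and Icam1 at -0.39 and 0.02.

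Set against Cdh5 in place of the reference genes, the other 4 genes can be read as counts per Cdh5 count, compared across diets within a gene only. Icam1 per Cdh5 rose from 0.254 ± 0.078 (SD, n = 8; range 0.149 to 0.397) in chow to 1.15 ± 0.24 (n = 9; range 0.653 to 1.38) with starch/oleate, and the groups did not overlap. Vcam1 per Cdh5 rose from 0.356 ± 0.132 (range 0.161 to 0.547) to 1.37 ± 0.29 (range 0.863 to 1.81), again without overlap. Cdh5, the divisor, itself did not overlap between these groups, and 94.1% of the genes tested were higher per Cdh5 with starch/oleate. The share of all genes that separate on this scale was not computed. These 2 separations therefore say nothing particular about Icam1 or Vcam1. Pecam1 per Cdh5 was 3.22 ± 0.36 in chow and 4.997 ± 0.52 with starch/oleate, and Icam2 per Cdh5 0.490 ± 0.034 and 0.702 ± 0.176.

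In the fit scaled to Cdh5, 11 of the 20 differences from chow passed. By diet, 0 of 4 members passed with sucrose/palmitate, 1 with starch/palmitate, 3 with sucrose/oleate, 4 with starch/oleate and 3 with the Western diet, where 1.43%, 49.6%, 64.3%, 94.7% and 74.7% of the genes tested did. With starch/oleate they were 2.18 ± 0.23 for Icam1 (adjusted p = 6.9e-11), 1.94 ± 0.22 for Vcam1 (adjusted p = 2.3e-10), 0.64 ± 0.09 for Pecam1 (adjusted p = 3.7e-08) and 0.52 ± 0.13 for Icam2 (adjusted p = 0.00019). Since a fall of Cdh5 raises every gene on this scale, these counts say nothing particular about them. Icam2 kept closest to Cdh5, with differences of 0.03 to 0.14 that did not pass in the other 4 diets. Both Pecam1 (-0.38 ± 0.07, adjusted p = 1.1e-05) and Icam2 (-0.26 ± 0.09, adjusted p = 0.0087) were lower per Cdh5 with palmitate than with oleate, where 81.2% of the genes tested passed.

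**Figure D4:**
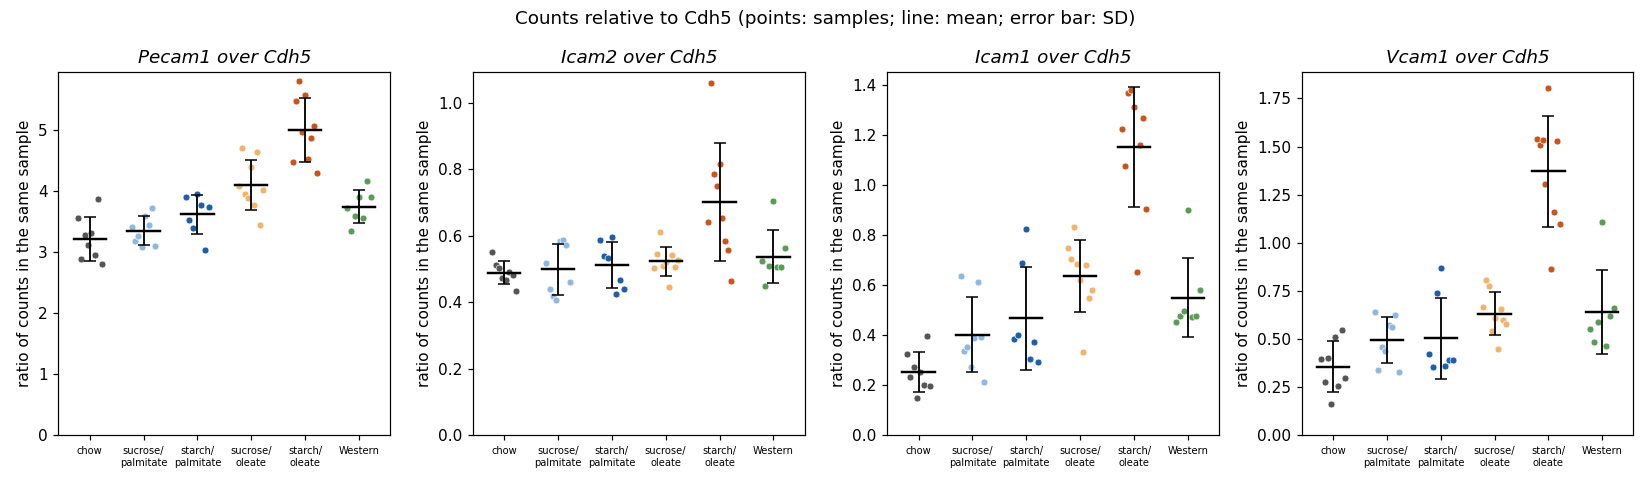
Ratio of each gene's count to the Cdh5 count of the same sample (y axis, from 0) by diet (x axis), with points for samples, lines for means and error bars for the SD. Icam1 per Cdh5 has a mean of 0.254 in chow and 1.15 with starch/oleate.

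Within diets, after each diet's mean was removed, Cdh5, Pecam1 and Icam2 varied together over all samples, and so did Icam1 and Vcam1. Over the 48 samples Pearson's r of the deviations was 0.91 between Cdh5 and Pecam1 (0.83 to 0.97 within single diets), 0.82 between Pecam1 and Icam2 (0.57 to 0.94) and 0.76 between Cdh5 and Icam2 (0.28 in starch/oleate to 0.94 in chow). It was 0.69 between Icam1 and Vcam1, which ranged from -0.16 within sucrose/palmitate to 0.94 within the Western diet. Across the sets, r was -0.04 for Cdh5 with Icam1, 0.12 for Cdh5 with Vcam1 and 0.33 for Pecam1 with Vcam1. Single diets departed from this: in sucrose/oleate r of Vcam1 was 0.71 with Cdh5, 0.82 with Pecam1 and 0.90 with Icam2. In the Western diet r of Icam1 with Icam2 was 0.82. Each of these 2 diets held a sample far from the diet mean in all 5 genes. The log2 deviations were 0.53 (Cdh5) to 0.90 (Vcam1) in sucrose/oleate sample 2. They were -0.42 (Cdh5) to -0.75 (Vcam1) in Western diet sample 2. The r values of single diets were not recomputed without these samples. In chow r of Vcam1 with Cdh5 was -0.65. All genes of a sample share one library and one reference factor, so these values are descriptions.

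**Figure D5:**
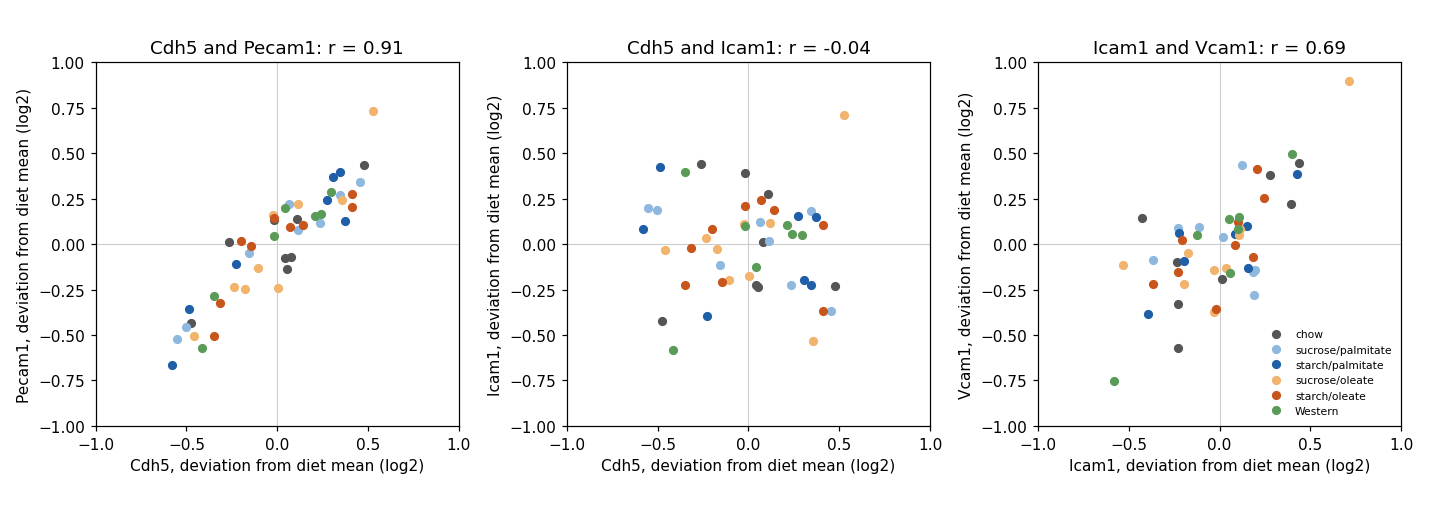
Deviations of log2 scaled counts from the diet mean for 3 pairs of members (both axes), one point per sample, coloured by diet. The Cdh5 and Pecam1 deviations lie along a line (r = 0.91), and those of Cdh5 and Icam1 do not (r = -0.04).

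Among all 490 other genes tested, the 3 most alike to Cdh5 by this measure were Pecam1 (0.91), Icam2 (0.76) and Ets1 (0.74), a transcription factor gene expressed in endothelium and lymphocytes. The same 3 genes, with Cdh5 in place of Pecam1, headed the list for Pecam1 (Cdh5 0.91, Icam2 0.82, Ets1 0.78), and Pecam1 (0.82), Ets1 (0.81) and Cdh5 (0.76) headed that for Icam2. For Icam1 they were Tlr2 (0.74), Spn (0.74), the leukocyte sialophorin, and Il17ra (0.73), a receptor for interleukin-17. For Vcam1 they were Ltb (0.72), the lymphotoxin beta gene, Il17ra (0.70) and Icam1 (0.69). The median r over all 490 genes was -0.10 for Cdh5, -0.01 for Pecam1, 0.03 for Icam2, 0.34 for Icam1 and 0.30 for Vcam1.

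The label of endothelial genes could be checked against few others. Of 13 listed endothelial markers 5 were matched on the panel, and 3 of them are members; the other 2 are Cd34, which adipose stromal progenitors also express, and Sele, the cytokine-induced E-selectin. In the oleate arm 4 of the 5 matched markers were higher with sucrose, but 3 of these are the members already given above. Those 3 therefore say nothing further about the label. Only Cd34 was added by this list, with means of 5059 in sucrose/oleate and 3899 in starch/oleate, and Sele did not pass. In that arm 5.09% of the genes tested were higher. Against chow and within diets Cd34 did not follow Cdh5. It was -0.01 ± 0.11 from chow with starch/oleate (adjusted p = 0.97), rose by 0.37 ± 0.11 with sucrose/oleate (adjusted p = 0.0092) and by 0.58 ± 0.12 with the Western diet (adjusted p = 0.00024), and its r with Cdh5 was -0.09. Sele lay close to background, with a mean count of 12.5, and rose with the Western diet alone (0.88 ± 0.35, adjusted p = 0.039).

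Partners of the adhesion molecules on leukocytes rose beside Icam1 and Vcam1 with starch/oleate, where 48.3% of the genes tested rose. The 6 measured integrin chains that bind ICAMs or VCAM-1 all rose with starch/oleate, among them Itga4 by 1.42 ± 0.22 (adjusted p = 1.2e-06), Itgal by 1.12 ± 0.18 (adjusted p = 2.0e-06) and Itgb1 by 0.19 ± 0.06 (adjusted p = 0.0072). Itgax rose by 1.92 ± 0.33 and Itgb2, the shared beta 2 chain, by 1.31 ± 0.30 (adjusted p = 0.00025). Fewer passed elsewhere, with 4 for sucrose/oleate, 3 for starch/palmitate and 2 each for sucrose/palmitate and the Western diet. Of the genes tested 28.9%, 20.6%, 14.9% and 32.8% rose, in the same order, so the Western diet count was near the share of all genes. All 6 were lower with palmitate than with oleate, where 23.6% of the genes tested were. Between sucrose and starch 0 of 6 passed, where 9.98% of the genes tested did in either direction. The list's median with starch/oleate was 1.22, beside 0.34 for all genes.

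Of 5 selectins and selectin ligands, 4 rose with starch/oleate, where 48.3% of the genes tested did. Among them were Spn (1.08 ± 0.20, adjusted p = 9.7e-06) and Cd44 (1.19 ± 0.25, adjusted p = 6.4e-05), a hyaluronan receptor. Of 12 tested cytokines and receptors known to induce ICAM-1 or VCAM-1, 7 rose and 1 fell with starch/oleate, not far from the 48.3% and 12% of all genes tested. Tnfrsf1b, a TNF receptor, rose by 1.08 ± 0.20 (adjusted p = 1.3e-05), Ltb by 1.30 ± 0.26 (adjusted p = 3.4e-05) and Tnf by 1.01 ± 0.26 (adjusted p = 0.00088). Il1b, with a mean count of 35.6, rose by 1.06 ± 0.46 (adjusted p = 0.046), but its samples were uneven. Its scaled counts ran from 17.2 to 161 (median 28.4) with starch/oleate and from 14.3 to 32.2 (median 22.1) in chow. How far the Il1b rise rested on single samples was not tested. Ifng, near background at a mean count of 10.5, was at -0.16 ± 0.27 (adjusted p = 0.64). In starch/palmitate, where Icam1 rose, 0 of these 12 passed. Of 13 NF-kappa B genes, 8 rose with starch/oleate and 3 were lower with palmitate than oleate, near the 48.3% and 23.6% of all genes tested. The smallest p in both was that of Tnfaip3, which encodes the feedback inhibitor A20 and rose by 0.90 ± 0.13 (adjusted p = 2.0e-07). Its rise was 0.86 with sucrose/oleate, 0.56 with the Western diet and 0.36 to 0.37 with the palmitate diets. Icam4 and Icam5, which follow Icam1 on chromosome 9, are named for their position; Icam4, near background at a mean count of 17.75, was 0.52 ± 0.15 higher with palmitate (adjusted p = 0.0052), opposite to Icam1.

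Markers of other cells moved with these groups. Ptprc, the CD45 gene of all leukocytes, rose by 1.37 ± 0.23 with starch/oleate (adjusted p = 2.6e-06) and was lower with palmitate than with oleate (-0.66 ± 0.16, adjusted p = 0.0020). Summed levels of 4 leukocyte genes ran from 906 to 6432 in chow and from 5108 to 10918 with starch/oleate. All 4 rose there, where 48.3% of the genes tested did. All 5 macrophage genes measured also rose there, Emr1 by 1.52 ± 0.26 (adjusted p = 3.5e-06), with sums of 2779 to 7661 in chow and 9018 to 14255 with starch/oleate. Within diets, r with Ptprc was 0.53 for Icam1 and 0.46 for Vcam1, and -0.43 for Cdh5, -0.32 for Pecam1 and -0.23 for Icam2. With the Ptprc level as a covariate, 11 of the 30 member differences that passed over 13 comparisons still passed.

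Of 3 adipocyte genes, 2 fell with starch/oleate, where 12% of the genes tested did. These were Pparg (-1.49 ± 0.15, adjusted p = 9.7e-11) and Cfd (-4.11 ± 0.48, adjusted p = 2.8e-09). Their summed level with Cd36 was 83966 to 303893 in chow and 53011 to 73992 with starch/oleate. Within diets, r with Pparg, the adipocyte regulator, was 0.69 for Cdh5, 0.62 for Pecam1 and 0.72 for Icam2, but -0.11 for both Icam1 and Vcam1. With starch/oleate, where 48.3% of all genes tested rose, 9 of the 10 lymph node genes tested did. Summed lymph node genes were 432 to 1345 in chow and 1494 to 2617 with starch/oleate. With their level as a covariate, Vcam1 with starch/oleate had an adjusted p of 0.38. The part that leukocytes, adipocytes and lymph node tissue had in the members' differences was not tested beyond these fits. With the Ptprc covariate Cdh5 still passed with starch/oleate against chow, between sucrose and starch, and between palmitate and oleate. It no longer passed with sucrose/oleate (-0.08 ± 0.18, adjusted p = 0.79) or the Western diet (-0.25 ± 0.18, adjusted p = 0.32).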

How the data were processed

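Gene expression was measured with the NanoString nCounter Mouse Immunology panel in 48 samples of total RNA. The authors deposited raw counts, whole-number barcode counts per probe for 547 endogenous genes, 14 reference genes, 8 negative and 6 positive controls, per the file headers. The scanner software and any earlier correction are not given in the sources used here.

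Each sample was scaled by its 14 reference genes (geometric mean). The 491 genes averaging 10 counts or more were tested with edgeR 4.0.16 (R 4.3.3) by quasi-likelihood, with one mean per diet over all 48 samples, and adjusted by Benjamini-Hochberg over all 491. An SE is the size of the log2 difference divided by the square root of its F statistic, and 95% intervals use the t quantile of the fit. Likeness used log2(scaled count + 1). The rule for named genes was the 5 members, the 3 genes most like each, and up to 3 genes per list with the smallest p among those that passed, with Ptprc, Emr1, Tnf, Il1b, Ifng, Itgal, Itgb2, Itga4, Itgb1, Sele, Selp and Cd34 where measured. Neighbouring means were compared in the same fit with 5 further pairs of diets. The fit was tested on simulated data. Alternatives were TMM and total count scaling, other count minimums, DESeq2 1.42.0, only the compared groups, left-out samples, and covariates.

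Members and lists were chosen with earlier results of these data known. Replicate numbers did not pair samples: the mean correlation of deviations was -0.016 for 112 pairs of the same number and 0.0067 for 846 of different number. No 2 libraries were copies, the lowest chi-square per degree of freedom over 1128 pairs being 5.14.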

Additional observations from a re-analysis of the deposited data

Results flagged for a closer look

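Among 30 combinations of gene and diet, 6 held a sample whose gap to its nearest neighbour was large for the range of its group (Dixon's test at its 95% critical value). For a single combination chance gives about 1 in 20. The 30 share libraries and are not independent, so the 6 cannot be set against that rate. Sucrose/oleate sample 2 was the highest of its group for Pecam1 (3912), Icam1 (587), Icam2 (453) and Vcam1 (672). It was also the highest for Cdh5 (832), where it did not pass Dixon's test. In that sample 2 platelet genes summed to 423, against 27.7 to 51.2 in the other 8 samples of the group, 12 lymph node genes to 6788, against 1268 to 1648, and 4 leukocyte genes to 3732, below the 4574 to 7529 of the others. Its 5 macrophage genes, at 11269, lay above the 6276 to 9674 of the others. So did its 13 NF-kappa B genes (6096, against 4675 to 5266) and its 14 inducing cytokines and receptors (9703, against 7698 to 8394). Western diet sample 2 was the lowest of its group for Icam2 (183). Without passing Dixon's test it was also the lowest for Cdh5 (408), Pecam1 (1366), Icam1 (195) and Vcam1 (199). In it the 5 epithelial genes summed to 175039 and the 3 adipocyte genes to 23954, against 53424 to 65501 in the other 6. Its 4 leukocyte genes summed to 1632, against 5240 to 7846, and its 5 macrophage genes to 3053, against 7635 to 14540. Sucrose/palmitate sample 7 was the highest of its group for Vcam1 (472), where its lymph node genes summed to 3058, within the 839 to 3100 of the other 7 samples. The part of these tissues in the members' values was not tested.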

How the results depend on the processing

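Over 13 comparisons, 30 of the 65 member differences passed, and 0 reversed under any of the alternatives. In all, 9 calls passed under all 11 planned fits other than left-out samples. Members called against chow moved from 1 to 2 (total counts) or 0 (lymph node covariate, spike-in ratio, Ptprc, only the compared groups) with sucrose/palmitate, from 1 to 2 (TMM), 3 (DESeq2) or 0 (spike-in ratio, Ptprc, only the compared groups) with starch/palmitate, and from 4 to 1 (spike-in ratio, Ptprc) with sucrose/oleate. With the Ptprc covariate they moved from 5 to 2 with starch/oleate, 3 to 0 with the Western diet, 5 to 1 between palmitate and oleate over both carbohydrates and in the starch arm, and 5 to 3 in the joint test. In the starch arm the lymph node covariate gave 3. The Western diet count was 2 with the lymph node covariate (Icam1 0.32, adjusted p = 0.067) and 4 with TMM, DESeq2 or without epithelium-rich libraries (Vcam1 adjusted p = 0.024). The interaction had 0, and 1 with TMM, without epithelium libraries or with Ptprc, and 2 with DESeq2. Palmitate against oleate with sucrose had 0, and 1 with TMM, the lymph node covariate, DESeq2 or without the 5 epithelium-rich libraries. With the replicate number as a block, sucrose against starch fell from 3 members to 1 (adjusted p = 0.059 for Pecam1 and 0.055 for Icam2) and palmitate against oleate from 5 to 4 (0.057 for Pecam1), and no other call was lost. Leaving out single samples gave 0 to 2 members with sucrose/palmitate, 0 to 1 with starch/palmitate, 2 to 4 with sucrose/oleate and with the Western diet, 1 to 3 for sucrose against starch, 0 to 1 for the interaction, and 0 to 1 for palmitate against oleate with sucrose. The cause of these moves was not tested. TMM called 156 genes higher and 127 lower with starch/oleate, against 237 and 59 with reference genes. Sele and Icam4 lie near background, which limits their precision.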
